A study of Mus musculus with 8 samples.

Results

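Msr1, Cd36, Olr1, Scarb1, Lrp1, Abca1, Abcg1, Plin2 and Soat1 encode proteins that take lipid into a cell, pass cholesterol out of it or store it. These 9 genes were picked by symbol from the 54752 genes counted in every library. The RNA came from the right cerebral cortex of C57BL/6 (C57BL/6 J in the methods) wild-type (WT) adult male mice, with 1 mouse per library. The 4 BCAS mice had undergone bilateral carotid artery stenosis, in which a microcoil narrows each common carotid artery and lowers the blood flow to the brain, with the tighter coil on the right. The 4 sham mice had the same surgery without coils. All cortices were taken 3 weeks after surgery, and the comparison asked how this hypoperfusion changed the cortical transcriptome.

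Scavenger receptors bind modified lipoproteins and debris of dying cells, and members of the LDL receptor family take up apolipoprotein E particles. The cholesterol that enters a cell is either pumped out by ABC transporters onto apolipoproteins or esterified and kept in lipid droplets. In injured brain, microglia and macrophages that clear myelin can fill with such droplets and become foamy. Oxysterols, which are oxidised forms of cholesterol, switch on efflux genes through the LXR nuclear receptors, which bind DNA at repeats of AGGTCA with 4 bases between the copies, called DR4 sites.

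Promoter sequence was at hand from RefSeq (build GRCm38.p6) for 6 of the 9 genes, namely Cd36, Olr1, Lrp1, Abca1, Plin2 and Soat1. Each window ran from 250 bases before a transcription start to 50 bases after it, and both strands were searched. An exact DR4 repeat, AGGTCA on both sides of any 4 bases, was in none of these 6 windows and in 0.0152% of all 32851 windows. Printed here, read along the strand of the gene, are the stretch closest to that repeat among the 6 genes and 3 stretches with shorter exact matches. They were chosen because Abca1, Plin2 and Cd36 had large changes and Olr1 was almost silent in sham mice. Capitals mark where the motif lies, which in Abca1 includes 3 letters that differ from it.
Abca1, chr4:53159940-53159969: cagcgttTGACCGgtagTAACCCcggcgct
Plin2, chr4:86670260-86670289: tttcaggaccccTGACCTaagtcagacagc
Cd36, chr5:17836107-17836136: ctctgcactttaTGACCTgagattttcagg
Olr1, chr6:129507207-129507237: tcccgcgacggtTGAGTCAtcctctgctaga

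The Abca1 stretch, 67 to 52 bases before the start, matched 9 of the 12 fixed letters of the spaced repeat on the opposite strand, and 18.5% of all windows held a stretch at least as close. This search with mismatches, over the bases before the start only, was added after the exact search had been run. The best stretches of Cd36, Olr1, Plin2 and Soat1 had 4 mismatches, and 70.6% of windows held a stretch at least that close. That of Lrp1 had 5. A single copy of AGGTCA was in the windows of Plin2, Cd36 and Olr1 and in 16.3% of all windows, on the opposite strand in Plin2 and Cd36. The Cd36 window belongs to a start inside the gene. The Olr1 stretch holds TGANTCA, the letters that AP-1 factors bind, found in 1 of the 6 windows and in 7.81% of all. TCACNCCAC, of the SREBP type, and a pair of GAAA with 2 bases between, of the interferon type, were in none of the 6 windows, against 1.24% and 3.44% of all windows. These matches describe letters only, and binding was not measured.

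Total counts ran from 16759364 to 18564612 in sham and from 17498316 to 21794435 in BCAS libraries, so that 3 counts, taken as the limit of detection, correspond to a mean of 0.178 CPM (counts scaled to library size by TMM, edgeR's trimmed-mean factors) in sham mice. Among 17136 tested genes, 12.2% were called, for which the adjusted p had to be under 0.05 and the log2 fold change beyond 1 in either direction, with 11.0% higher and 1.28% lower in BCAS mice. Cell markers moved as well. The summed level of 10 microglia and macrophage markers was 393 to 479 CPM in sham and 1925 to 7692 CPM in BCAS mice, and that of 10 neuronal markers was 10373 to 12031 CPM against 4085 to 8847 CPM. Border macrophage and monocyte markers summed to 17.6 to 22.3 CPM against 33.6 to 193 CPM, and fibroblast markers to 120 to 151 CPM against 231 to 989 CPM. Pdgfra alone gave 73.3 CPM of the mean fibroblast sum of 137 CPM in sham mice, and 105 of 660 CPM in BCAS mice. All 10 microglia and macrophage markers and 6 of the 8 tested border macrophage and monocyte markers were called higher (of the latter, Ms4a7, Ccr2 and Ly6c2 passed the filter only with their BCAS libraries), and 8 of 10 neuronal markers fell at an adjusted p under 0.05, 1 of them beyond the fold threshold, beside 12.8% of all tested genes that fell at any fold. Neutrophil, lymphocyte and red blood cell sums were also higher without overlap, at 55.3 to 212, 5.77 to 58.6 and 94.5 to 124 CPM in BCAS mice against 5.49 to 9.66, 2.40 to 5.43 and 59.3 to 80.8 CPM, with the neutrophil marker Ly6g at 0 in every library. The neutrophil sum was almost all Csf3r (7.13 CPM in sham and 120 CPM in BCAS mice), which microglia also express. Astrocyte, oligodendrocyte, endothelial and pericyte sums overlapped between the groups, but 6 of 9 astrocyte markers rose at an adjusted p under 0.05, among them Aqp4 from 170 to 533 CPM, beside 19.2% of all tested genes. Sham mouse 3 stood apart, with choroid plexus markers at 782 CPM against 19.2 to 52.2 CPM in the other sham mice. In this bulk tissue, more cells of a type cannot be told apart from more RNA per cell.

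Most of the lipid genes were higher in BCAS mice, over a wide range of sizes. Of the 9 genes, 8 passed the filter on low counts, and 6 of these (Msr1, Cd36, Abca1, Abcg1, Plin2 and Soat1) were upregulated beyond the fold threshold, beside 11.0% of all tested genes. Lrp1 was raised at an adjusted p under 0.05 with a smaller fold, as 19.2% of all tested genes were at any fold. Scarb1 did not pass the test, and 0 of the 8 genes were lower, beside 12.8% of all tested genes that fell at any fold. The median log2 fold change of the 8 genes was 2.01, against -0.01 over all tested genes. Msr1 passed the filter through its BCAS libraries alone, and the genes had been chosen with earlier results known, so that these counts and this median are descriptions. Without Msr1, 5 of 7 were called. Under limma-voom, 3 of the 8 were called. Of all tested genes, 18.5% had every BCAS library above every sham library.

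**Figure D1:**
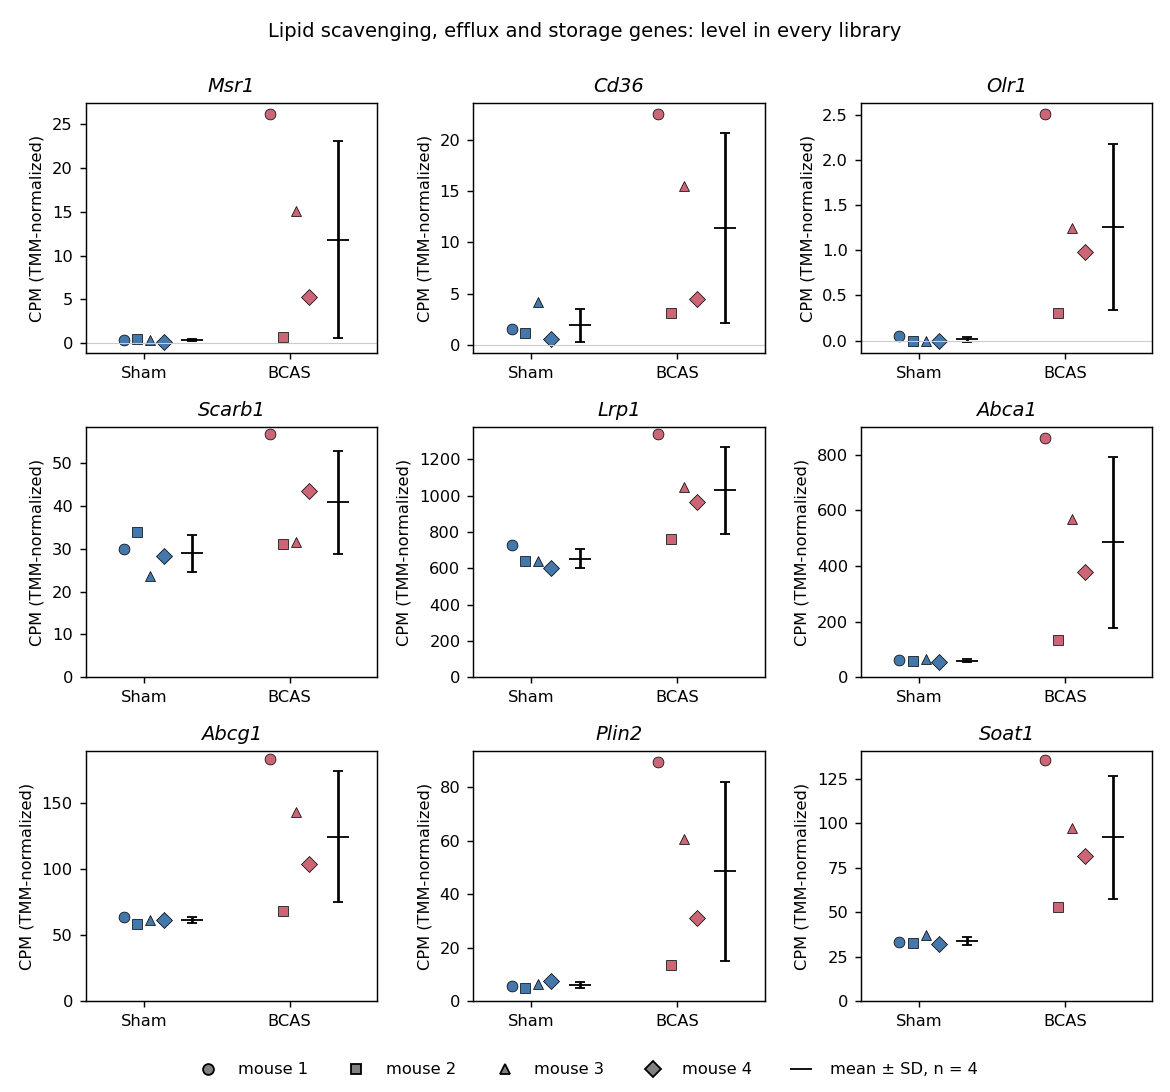
Level of each of the 9 genes in every library, in TMM-scaled CPM on linear axes that differ between panels. Symbols give the mouse number within its group and bars the mean ± SD of 4 mice. BCAS mouse 1 is the highest and BCAS mouse 2 the lowest BCAS library in all 9 panels.

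Among the scavenger receptors, Msr1 had the largest change of the 8 tested genes by edgeR. It encodes scavenger receptor class A, which macrophages use to take up modified lipoproteins (ENSMUSG00000025044.16, mm10 chromosome 8, 39581685 to 39642673). Counts of Msr1 in mice 1 to 4 were 7, 8, 6 and 2 after sham surgery and 595, 14, 280 and 97 after BCAS. All 4 BCAS libraries lay above the sham libraries, but BCAS mouse 2, at 0.721 CPM, was close to the highest sham library at 0.499 CPM. The mean level of Msr1 was 0.340 ± 0.160 CPM in sham and 11.8 ± 11.3 CPM in BCAS mice (SD, n = 4). The log2 fold change was 5.10 with an SE of 1.03 (adjusted p = 0.00910 by the quasi-likelihood test of edgeR, corrected after Benjamini and Hochberg). Since low sham counts let Msr1 pass the filter through BCAS libraries alone, this p is a description. The log2 fold change was 4.36 without BCAS mouse 1 and 5.50 without BCAS mouse 2. Under limma-voom, the log2 fold change of 4.28 for Msr1 had an adjusted p of 0.122. With limma on log2(CPM + 1), Msr1 was at 2.64 and no longer the largest, since Abca1 was at 2.72.

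Cd36 encodes a scavenger receptor that also carries long-chain fatty acids, on macrophages and on endothelium (ENSMUSG00000002944.15, chromosome 5, 17781690 to 17888801). Counts of Cd36 in mice 1 to 4 were 28, 19, 74 and 10 after sham surgery and 512, 61, 288 and 83 after BCAS. The groups overlapped, since BCAS mouse 2 at 3.14 CPM lay below sham mouse 3 at 4.23 CPM, the library with the high choroid plexus markers. The mean level of Cd36 rose from 1.90 ± 1.61 to 11.4 ± 9.24 CPM, a log2 fold change of 2.58 (SE 0.75, adjusted p = 0.0304 by edgeR's quasi-likelihood test). Without sham mouse 3 the log2 fold change of Cd36 was 3.32 (adjusted p = 0.0270 by edgeR). The call was lost without any one of sham mice 1, 2 and 4 or BCAS mice 1 and 3, where edgeR gave adjusted p between 0.0553 and 0.0846, and under limma-voom at 0.0746.

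Olr1 encodes LOX-1, a receptor for oxidised LDL (ENSMUSG00000030162.14, chromosome 6, 129485244 to 129507165). It had 1 count in sham mouse 1 and 0 in the other 3 sham libraries, and 57, 6, 23 and 18 counts in BCAS mice 1 to 4. Every BCAS library was thus above the limit of 3 counts and every sham library below it. Olr1 did not pass the count filter and has no fold from the test. Its BCAS mean of 1.26 ± 0.919 CPM was higher than 3 counts per sham library by at least 7.09-fold. Among 18 alternative fits, Olr1 passed the filter in 6, through its BCAS libraries, and no p-value is given for it.

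Scarb1 encodes SR-BI, the HDL receptor, which exchanges cholesterol with lipoproteins in either direction (ENSMUSG00000037936.15, chromosome 5, 125277087 to 125341094). Counts of Scarb1 were 529, 546, 414 and 468 in sham and 1294, 607, 586 and 801 in BCAS mice 1 to 4. On the CPM scale, BCAS mice 2 and 3 at 31.3 and 31.7 CPM lay within the sham range of 23.7 to 34.1 CPM. Scarb1 averaged 29.0 ± 4.31 CPM in sham and 40.9 ± 12.1 CPM in BCAS mice. The log2 difference of 0.50 (SE 0.20) did not pass the test (adjusted p = 0.0876, edgeR). Its 95% interval ran from 0.04 to 0.95. Without BCAS mouse 2 the difference was 0.62 and passed, with an adjusted p of 0.0250 by edgeR, the only 1 of the 8 fits without 1 mouse to do so. Without BCAS mouse 1 the difference was 0.31 (adjusted p = 0.168, edgeR).

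Lrp1 encodes a large endocytic receptor of the LDL receptor family that neurons, astrocytes and macrophages share, and which takes up apolipoprotein E (ENSMUSG00000040249.15, chromosome 10, 127538161 to 127621148). Counts of Lrp1 were 12795, 10290, 11195 and 9973 in sham and 30545, 14832, 19360 and 17710 in BCAS mice 1 to 4. All BCAS libraries lay above all sham libraries, by a small margin for BCAS mouse 2 (764 against at most 727 CPM). The mean rose from 653 ± 52.9 to 1029 ± 240 CPM, a log2 fold change of 0.66 (SE 0.17, adjusted p = 0.0218, edgeR). Without any one of sham mice 2, 3 and 4 or BCAS mouse 3, the adjusted p of Lrp1 lay above 0.05, at up to 0.0674.

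Both efflux transporters were upregulated, Abca1 far more than Abcg1. Abca1 hands cholesterol and phospholipid to lipid-poor apolipoproteins (ENSMUSG00000015243.4, chromosome 4, 53030787 to 53159895). Counts of Abca1 in mice 1 to 4 were 1074, 938, 1143 and 897 after sham surgery and 19575, 2603, 10525 and 6957 after BCAS. The groups did not overlap, and even BCAS mouse 2, at 134 CPM, was above the highest sham library at 65.4 CPM. The mean of Abca1 rose from 59.8 ± 4.70 to 486 ± 307 CPM, which is 8.12-fold on the means. The log2 fold change was 3.02 (SE 0.47, adjusted p = 0.00375, edgeR's quasi-likelihood test), and it stayed between 2.61 and 3.35 when any mouse was left out.

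Abcg1 passes cholesterol to particles that already hold lipid (ENSMUSG00000024030.6, chromosome 17, 31057698 to 31115777). Its counts were 1125, 932, 1072 and 1016 in sham and 4159, 1327, 2639 and 1902 in BCAS mice 1 to 4. The sham libraries were tight, at 58.2 to 63.9 CPM, and BCAS mouse 2 was just above them at 68.4 CPM. The mean of Abcg1 rose from 61.2 ± 2.36 to 124 ± 49.4 CPM, a log2 fold change of 1.02 (SE 0.25, adjusted p = 0.0190, edgeR). This lies at the fold threshold. The log2 fold change fell below it under limma-voom and under limma on log2(CPM + 1) (0.92 each). It also did so with the replicate number as a block (0.93). Without BCAS mouse 1 the log2 fold change was 0.79, and the adjusted p was 0.0521 to 0.0569 without any one of sham mice 1, 2 and 4 or BCAS mouse 3.

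The storage genes Plin2 and Soat1 rose with no overlap between the groups. Plin2 encodes a perilipin that coats lipid droplets (ENSMUSG00000028494.12, chromosome 4, 86648386 to 86670060). Its counts were 97, 81, 111 and 125 in sham and 2032, 262, 1121 and 568 in BCAS mice 1 to 4. BCAS mouse 2, at 13.5 CPM, was above the highest sham library at 7.54 CPM. The mean of Plin2 rose from 6.11 ± 1.09 to 48.6 ± 33.4 CPM, a log2 fold change of 2.99 (SE 0.52, adjusted p = 0.00527, edgeR).

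Soat1 encodes the enzyme that esterifies cholesterol for storage (ENSMUSG00000026600.12, chromosome 1, 156424525 to 156474331). Counts of Soat1 were 588, 527, 651 and 531 in sham and 3083, 1032, 1807 and 1500 in BCAS mice 1 to 4. The lowest BCAS library, mouse 2 at 53.2 CPM, was above the highest sham library at 37.2 CPM. The mean of Soat1 rose from 33.9 ± 2.30 to 92.0 ± 34.4 CPM, a log2 fold change of 1.44 (SE 0.24, adjusted p = 0.00476, edgeR). Abca1, Plin2 and Soat1 were called in all 8 fits that left out 1 mouse.

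**Figure D2:**
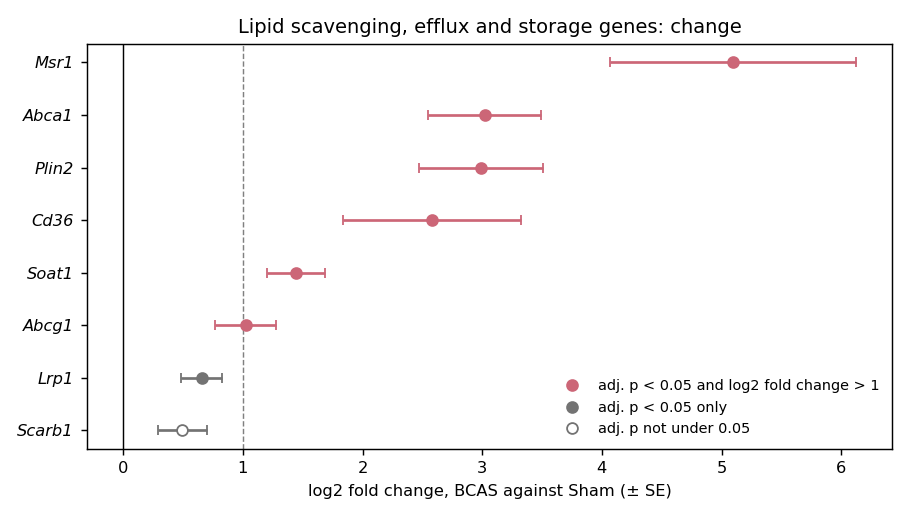
Log2 fold change of BCAS against sham mice for the 8 tested genes, with bars for ± 1 SE from edgeR and a dashed line at the fold threshold of 1. Msr1 is farthest to the right at 5.10, with the widest bar, and Lrp1 and Scarb1 lie left of the dashed line at 0.66 and 0.50.

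The BCAS mice differed among themselves in the same order for nearly every gene. BCAS mouse 1 was highest and BCAS mouse 2 lowest for 9 of 9 genes, and the full order of mice 1, 3, 4 and 2 held for 8 of 9, with Scarb1 the exception. The libraries as a whole stood in the same order, since the chi-square per degree of freedom of their counts against sham libraries was highest for BCAS mouse 1 (252 to 279), followed by mouse 3 (98 to 114), mouse 4 (90.9 to 107) and mouse 2 (22.8 to 35.4), although this measure also grows with depth and the ranges of mice 3 and 4 overlapped. The ratio of the highest to the lowest BCAS library was 36.3 for Msr1, 8.11 for Olr1, 7.16 for Cd36, 6.62 for Plin2 and 6.42 for Abca1. It was 2.67 for Abcg1, 2.55 for Soat1, 1.82 for Scarb1 and 1.76 for Lrp1. The microglia and macrophage sum was likewise highest in BCAS mouse 1 (7692 CPM) and lowest in BCAS mouse 2 (1925 CPM), and the neuronal sum was lowest in BCAS mouse 1 (4085 CPM) and highest in BCAS mouse 2 (8847 CPM). The part of these cell markers in the order of the lipid genes was not tested. The test called 4 of the genes without BCAS mouse 1 or without BCAS mouse 3, and 7 without BCAS mouse 2 or without sham mouse 3, where Olr1 passed the filter and was the added gene.

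**Figure D3:**
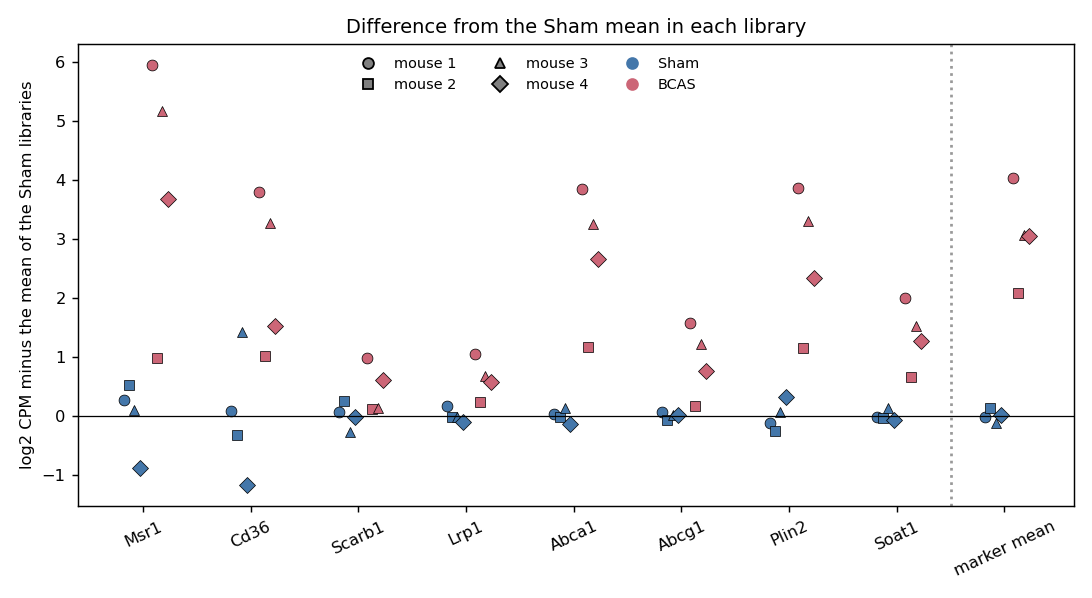
Difference of each library's log2 CPM from the mean of the sham libraries, for the 8 tested genes and, right of the dotted line, for the mean of 10 microglia and macrophage markers. In BCAS mice the markers rose by 3.06 on average, and BCAS mouse 2 is the lowest BCAS point in every column.

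Scaled to exon length as RPKM, so that genes can be compared, the order of the mean levels changed with BCAS. In sham mice Lrp1 came first at 36.8 ± 2.99 RPKM, followed by Abcg1 at 15.1 ± 0.581 and Abca1 at 5.77 ± 0.454 RPKM. Soat1 (3.46 ± 0.235 RPKM) and Scarb1 (3.41 ± 0.507 RPKM) overlapped in their libraries. Plin2 at 1.74, Cd36 at 0.530, Msr1 at 0.0536 and Olr1 at 0.00398 RPKM came last. All other neighbours in the sham order were separate. For Msr1 and Olr1 this rests on 2 counts of Msr1 in sham mouse 4 against 1 of Olr1 in sham mouse 1, below the limit of 3 counts. In BCAS mice the order of the means was Lrp1 (58.1 RPKM), Abca1 (46.9), Abcg1 (30.6), Plin2 (13.8), Soat1 (9.40), Scarb1 (4.81), Cd36 (3.18), Msr1 (1.86) and Olr1 (0.353 RPKM). Every pair of neighbours in the BCAS order overlapped between libraries. Abca1 thus moved above Abcg1 in its mean level, and Plin2 above Soat1 and Scarb1. BCAS mouse 2 kept the sham order of Abca1 (12.9 RPKM) below Abcg1 (16.8 RPKM), and of Plin2 (3.84 RPKM) below Soat1 (5.43 RPKM).

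Whether genes of like role changed unequally was tested on 4 pairs, with the log2 ratio of both genes taken within each library. The ratio of Abca1 to Abcg1 in mice 1 to 4 was -0.07, 0.01, 0.09 and -0.18 after sham surgery and 2.23, 0.97, 1.99 and 1.87 after BCAS. The shift of 1.80 left no overlap, and the exact two-sided permutation test gave p = 0.0286, the smallest value 70 arrangements allow (0.0381 adjusted over the 4 pairs). Plin2 against Soat1 shifted by 1.30 without overlap, with the same exact p of 0.0286 (adjusted 0.0381). Msr1 against Lrp1 shifted by 3.31 without overlap, given as a description because Msr1 passed the filter through its BCAS libraries alone. The adjusted values above still count this pair as 1 of the 4 tests and depend on it. Since the genes and rules were chosen with earlier results known, the p-values of the pairs are descriptions. Cd36 against Scarb1 shifted by 1.94 with overlap, at an exact p of 0.0857. In each pair the first gene had the higher ratio in BCAS mice. These ratios are not scaled to gene length, so only their shift between groups is read.

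Set against the markers of microglia and macrophages in the same library, 4 genes overlapped between the groups and 4 were lower in every BCAS library, as 95.2% of all tested genes were. The level relative to the markers is the gene's log2 CPM minus the mean log2 CPM of 10 markers, which rose by 3.06 from sham to BCAS mice, so that a gene without change shifts by about as much downwards. Abca1 was at 1.07, 0.85, 1.27 and 0.87 in sham and at 0.82, 0.09, 1.20 and 0.62 in BCAS mice, a shift of -0.33 with overlap (exact permutation p = 0.229). Plin2 shifted by -0.40 (exact p = 0.257) and Cd36 by -0.66 (exact p = 0.429), each with overlap. Msr1, which passed the filter through its BCAS libraries alone, shifted by 0.88 with overlap, and by 1.55 without BCAS mouse 2. These p-values do not show that the genes and the markers moved alike. Scarb1 shifted by -2.60, Lrp1 by -2.43, Abcg1 by -2.13 and Soat1 by -1.70. For these 4 genes no BCAS library overlapped a sham library, and the share of 95.2% shows that this is the usual outcome of subtracting the markers, so no p-value is given. A shorter list of 6 markers rose by 2.52, which added 0.54 to the shift of every gene and took Abca1 to 0.21 and Plin2 to 0.14.

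**Figure D4:**
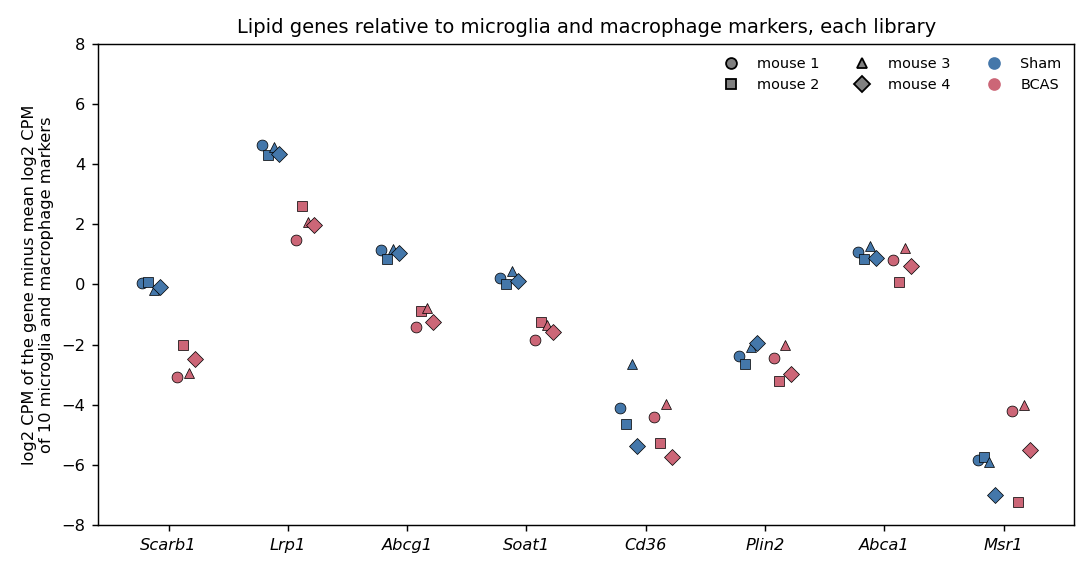
Log2 CPM of each tested gene minus the mean log2 CPM of 10 microglia and macrophage markers, per library. For Scarb1, Lrp1, Abcg1 and Soat1 all BCAS points lie below all sham points, and for Cd36, Plin2, Abca1 and Msr1 the groups overlap.

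The genes whose course over the 8 libraries lay nearest to each lipid gene were named by the smallest root-mean-square difference in log2 CPM, each relative to its sham mean, among 13835 genes. Nearest to Msr1 were Ms4a7 (difference 0.33) and Ccr2 (0.44), both of the border macrophage and monocyte list. Cd74, Slamf7 and H2-Ab1, which came next, are not on that list. Msr1, Ms4a7 and Ccr2 each passed the filter only with their BCAS libraries, so this match is a description, and a shared cell source was not tested. For Cd36 the nearest genes were Lbp (0.44) and Nlrp1b (0.51), a looser match. For Abca1 they were Psmb9 (0.12) and Nfam1 (0.16), and for Abcg1 Trp53inp1 and Rp2 (0.08 each). For Plin2 they were Syk (0.18) and Traf1 (0.20), and for Soat1 Skap2 (0.07) and Lamp2 (0.08). Scarb1 lay nearest to Ly6c1 and Adgrl4 (0.11 each), and Lrp1 to Pign (0.05) and Wnk1 (0.07).

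Beyond the 9 genes, 9 lists held 110 other genes of lipid handling, of which 101 were tested. Of these, 25 were upregulated beyond the fold threshold (24.8%, beside 11.0% of all tested genes) and 0 downregulated. Of the 25, 4 (Ch25h, Lrp2, Scara5 and Soat2) passed the filter only with their BCAS libraries, as 494 of the 1877 called higher among all genes did, so these counts are descriptions. At any fold 40 rose and 8 fell at an adjusted p under 0.05, which 19.2% and 12.8% of all tested genes did. The lists differed in their medians and in how many genes moved. None was tested as a set.

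Of 12 tested scavenger receptors other than those above, 6 were called higher and 0 lower, with a median log2 fold change of 1.11. That is 50% higher beside 11.0% of all tested genes. Among the 6, Scara5 passed the filter only with its BCAS libraries. Cd68, a lysosomal scavenger receptor of macrophages, rose from 6.76 ± 0.622 to 192 ± 113 CPM (log2 fold change 4.83, adjusted p = 0.00146, edgeR). Cxcl16, a chemokine that also binds oxidised lipoprotein, rose from 1.69 ± 0.442 to 30.9 ± 21.3 CPM (4.19, adjusted p = 0.00297). Cd5l, a secreted scavenger protein of macrophages that did not pass the filter, was at a mean of 0.0284 CPM in sham and 37.9 ± 38.8 CPM in BCAS mice. It was singled out after its values were seen.

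Of 17 tested genes of the LDL receptor family and its regulators, 5 were called higher and 0 lower, or 29.4% higher beside 11.0% of all tested genes. Among the 5, Lrp2 passed the filter only with its BCAS libraries. At an adjusted p under 0.05, 3 fell with a smaller fold, beside 12.8% of all tested genes that fell at any fold. The median log2 fold change was -0.18. Mylip, the ligase that marks the LDL receptor for degradation and is itself switched on by LXR, rose from 20.4 ± 2.05 to 87.0 ± 47.3 CPM (2.10, adjusted p = 0.00512, edgeR). Lrp11 fell by 0.61 on the log2 scale (adjusted p = 0.0495) and Lrp3 fell by 0.59 (adjusted p = 0.0184).

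Of 12 tested LXR target genes, 6 were called higher and 0 lower, with a median log2 fold change of 0.90. That is 50% higher beside 11.0% of all tested genes. Apoe, whose product accepts the cholesterol that Abca1 exports, rose from 1404 ± 49.4 to 8575 ± 4697 CPM (log2 fold change 2.61, adjusted p = 0.00410, edgeR). Lpl, which releases fatty acids from lipoproteins, rose from 21.1 ± 5.74 to 164 ± 95.7 CPM (2.96, adjusted p = 0.00347). At an adjusted p under 0.05, 7 of the 12 rose and 5 did not pass. Among these 5 were Fasn, Scd1 and Scd2, with log2 differences of -0.14, -0.09 and 0.15 (adjusted p = 0.244, 0.654 and 0.393, edgeR). Mylip, Srebf1, Nr1h3 and Lpl are in this list and in another one each.

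Among 14 tested lipid-sensing transcription factors, 2 were called higher and 0 lower, or 14.3% higher beside 11.0% of all tested genes, and the median log2 fold change was 0.04. Nr1h3, which encodes LXR alpha, rose from 2.52 ± 0.337 to 6.55 ± 1.97 CPM (1.38, adjusted p = 0.00644, edgeR), and Srebf1 rose by 1.14 (adjusted p = 0.00637). Srebf2, which drives cholesterol synthesis, fell by 0.61 on the log2 scale, from 338 ± 13.2 to 221 ± 43.6 CPM (adjusted p = 0.0129). Ppargc1a fell by 0.45 (adjusted p = 0.0173).

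Of 4 tested oxysterol enzymes, 2 were called higher and 0 lower, with a median log2 fold change of 0.70. That is 50% higher beside 11.0% of all tested genes. Ch25h, which makes 25-hydroxycholesterol, was at 0.702 ± 0.354 CPM in sham and 24.4 ± 13.7 CPM in BCAS mice, and passed the filter only with its BCAS libraries, so no p-value is given. Cyp27a1 rose by 1.11 (adjusted p = 0.0441) with overlapping groups.

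Of 12 tested ABC genes, 2 were called higher and 0 lower (median 0.10), or 16.7% beside 11.0% of all tested genes. Abca9 rose from 14.5 ± 1.78 to 66.5 ± 33.5 CPM (2.20, adjusted p = 0.00344, edgeR). Of 16 tested droplet genes, 2 were called higher and 0 lower (median -0.02), or 12.5% beside 11.0% of all tested genes. Plin4 rose by 1.70 (adjusted p = 0.0163) and Plin3 by 0.99 (adjusted p = 0.00653), both perilipins like Plin2. Soat2, which shares its reaction with Soat1, was the other called droplet gene, passed the filter only with its BCAS libraries and was singled out after its values were seen, at 0.292 ± 0.228 CPM in sham and 2.08 ± 1.04 CPM in BCAS mice.

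Of 10 tested genes of lipid hydrolysis and lysosomal cholesterol egress, 2 were called higher and 0 lower (median 0.58), or 20% higher beside 11.0% of all tested genes. Npc2, which carries cholesterol out of the lysosome, rose from 54.7 ± 2.22 to 320 ± 167 CPM (2.55, adjusted p = 0.00249, edgeR). Lipa, the lysosomal acid lipase, rose from 18.8 ± 1.48 to 89.8 ± 53.5 CPM (2.26, adjusted p = 0.00650). Stard4, a cytosolic cholesterol carrier, fell by 0.96 on the log2 scale (adjusted p = 0.0180). Of 8 tested genes of fatty acid binding and uptake, 2 were called higher and 0 lower (median 0.38), or 25% higher beside 11.0% of all tested genes. The 2 were Lpl and Fabp7, the brain fatty acid binding protein (1.54, adjusted p = 0.0120). Fabp3 fell by 0.72 (adjusted p = 0.0293) with overlapping groups and Slc27a4 by 0.45 (adjusted p = 0.0218), beside 12.8% of all tested genes that fell at any fold.

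**Figure D5:**
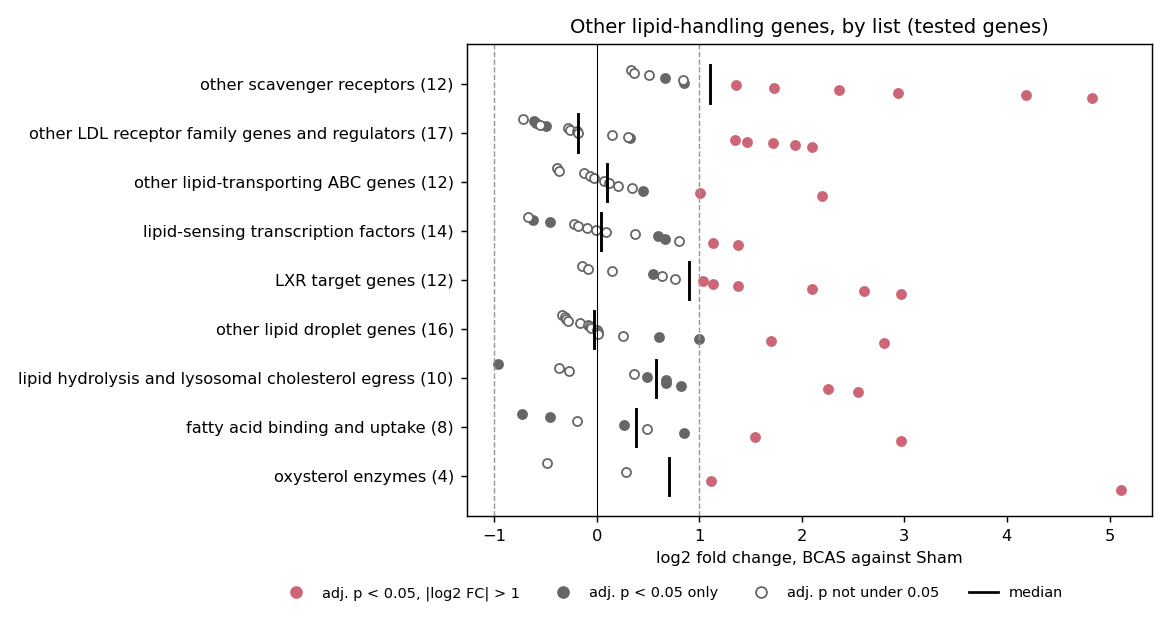
Log2 fold change of every tested gene in the 9 lists of other lipid-handling genes, with the number tested in parentheses, list medians as black bars and dashed lines at the fold threshold in both directions. Scavenger receptors have the highest median at 1.11, and no gene lies left of the lower threshold.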

How the data were processed

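Total RNA of the right cortex of each mouse was sequenced as mRNA libraries (NEBNext kit, paired ends). Per the methods and labels, the authors trimmed reads (Trim-galore), aligned them to mm10 (HISAT2, Samtools 1.9) and deposited raw counts per gene from featureCounts. The methods give version 1.6.3 and RefSeq genes, whereas the file headers give 2.0.1 and GENCODE vM20 without a strand option. No exon base of the 9 genes is covered by another gene. All 54752 genes were read, 0 columns were unmapped, and 54723 identifiers matched a symbol. Counts were fitted in edgeR 4.0.16 (R 4.3.3) with TMM, filterByExpr (minimum count 10, total 15) and the quasi-likelihood F-test, without covariates, and p-values were Benjamini-Hochberg adjusted over all tested genes. CPM and RPKM use TMM library sizes, and log2 CPM a prior count of 2. Single values were compared by exact permutation of the 8 libraries. DESeq2 1.42.0, limma-voom and limma 3.58.1, other scalings, filters, thinning, a replicate block and leaving out each mouse were alternatives. Procedures were tested on simulated data. Genes named are the 9, from each list up to 2 with the largest rise and 2 with the largest fall at an adjusted p under 0.05 and a mean of at least 50 counts, and the 2 nearest to each. Some list genes that this rule names are not reported here. The 9 genes, lists and rules were chosen with earlier results of these data known. Counting error alone underlies the limit of 3 counts. No shared culture or litter is stated, and p-values measure the spread between mice. Figures used matplotlib 3.10.9.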

Additional observations from a re-analysis of the deposited data

Results flagged for a closer look

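In 9 of 66 groups of 4 mice examined, 1 library lay far from the other 3, by a gap to the nearest that took a large share of the group's range (Dixon's criterion). Chance does this in about 1 in 20 groups. For Olr1 in sham mice the share was 1.0, because mouse 1 had the only count. For the level of Msr1 relative to microglia and macrophage markers, sham mouse 4 was low (0.867), with 2 counts of Msr1.

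The others were sums of cell markers. Among sham mice, mouse 2 was high for border macrophage and monocyte markers (0.885) and for lymphocyte markers (0.892). Sham mouse 3 was high for choroid plexus markers (0.957) and low for pericyte and smooth muscle markers (0.860) and oligodendrocyte markers (0.889). Sham mouse 4 was low for red blood cell markers (0.856). BCAS mouse 4 was high for choroid plexus markers (0.925), at 76.3 CPM.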

How the results depend on the processing

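No setting called any of the 9 genes lower. The number called higher was 4 to 7 with 1 mouse left out, 3 under limma-voom, where Msr1 and Cd36 had adjusted p of 0.122 and 0.0746 and Abcg1 a log2 fold change of 0.92, and 5 to 7 under the other settings. Olr1 is among those called in the 6 fits that tested it. Over all genes the count was 1644 to 2967 with 1 mouse left out, 1577 to 2417 elsewhere and 5490 with no fold threshold. Over the 9 lists it was 20 to 33, 22 to 26 and 48 in the same order. Library size alone moved the median of all genes to 0.08. A filter of 10 counts in every library removed Msr1, and limma on log2(CPM + 1) gave it a log2 fold change of 2.64.

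The labels state no pairing of same-numbered mice. Correlations of their deviations ran from -0.1031 to 0.0013, with 0 of 4 sham libraries nearest to their own number, which does not settle whether they shared a batch. The replicate block gave 5 of the 9 genes, 24 list genes and 1809 genes in all, and took Abcg1 to 0.93.

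The shift relative to microglia and macrophage markers reversed for Abca1 (0.21) and Plin2 (0.14) when 4 of the 10 markers were left out, which added 0.54 to every gene. With 1 mouse left out, it ranged from -0.50 to -0.13 for Abca1, -0.61 to -0.22 for Plin2, -1.05 to -0.14 for Cd36 and 0.47 to 1.55 for Msr1, from -2.81 to -2.45 for Scarb1, -2.62 to -2.24 for Lrp1, -2.23 to -2.02 for Abcg1 and -1.79 to -1.59 for Soat1. The within-library shifts ranged from 1.65 to 2.07 for Abca1 to Abcg1, 2.78 to 4.17 for Msr1 to Lrp1, 1.55 to 2.51 for Cd36 to Scarb1 and 1.11 to 1.57 for Plin2 to Soat1. For Abca1 to Abcg1 and Plin2 to Soat1 the exact p was 0.0571 in the 4 cases without a sham mouse and 0.0286 in the 4 without a BCAS mouse. The exact p fell to 0.0286 for Cd36 to Scarb1 without sham mouse 3 (2.51). Relative to the markers, the groups no longer overlapped for Abca1 without BCAS mouse 3 (-0.50) and for Msr1 without BCAS mouse 2 (1.55). For Abca1 this is the usual outcome of subtracting the markers, as 95.2% of all tested genes were lower without overlap over all 8 libraries. No p-value is given for either.

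Depth limits Olr1 and Msr1 most, with at most 1 and 8 counts in any sham library.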
